A study of Arabidopsis thaliana with 15 samples.

Results

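Late precursors of the stomatal lineage of Arabidopsis thaliana were compared with early precursors on 6 of the 15 ATH1 arrays of the study, across all 20956 probe sets. The arrays were chosen by their titles. Late precursors are 3 arrays of older guard mother cells and newly formed guard cells, sorted from the line FAMAp::GFP-FAMA, in which the FAMA promoter drives a fusion of GFP and FAMA. Early precursors are 3 arrays of mother cells of meristemoids and of young meristemoids, sorted from the line SPCHp::SPCH-YFP, in which the SPCH promoter drives a fusion of SPCH and YFP. Both lines were in the Col background, with no mutant allele and no treatment other than digestion of the aerial tissue of 14-day seedlings for 2 hours to release protoplasts. The other 9 arrays hold middle precursors (MUTEp::nucGFP), mature guard cells (the enhancer trap line E1728::GFP) and whole epidermis (ML1p::YFP-RCI2A), and they are used only to place the levels. The comparison sets the cells of the terminal division and of young guard cells against cells that still divide asymmetrically and renew themselves.

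Stomata arise through an ordered set of divisions in the leaf epidermis. SPCH, a basic helix-loop-helix (bHLH) transcription factor, starts the lineage and keeps the asymmetric divisions of meristemoids going. The related factor MUTE ends them by turning the meristemoid into a guard mother cell. FAMA, listed here under the symbol FMA, limits the guard mother cell to 1 symmetric division and is needed for guard cell identity. Guard cells then build a specialised wall and the ion transport that opens and closes the pore.

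Each sort is a bulk sample and each population is its own reporter line, so stage and line cannot be told apart, nor can fewer cells that express a gene be told apart from less RNA per cell. The labels do not say whether replicates came from separate cultures, and p-values therefore measure only the spread between these arrays. The early precursor arrays varied more than the late ones. Pearson's r across probe sets, which are not independent, was 0.963, 0.97 and 0.994 between late arrays and 0.82, 0.849 and 0.867 between early arrays. Between a late and an early array it was 0.79 to 0.865. Early replicate 3 reached 0.861 to 0.865 with the late arrays, against 0.849 and 0.867 with the other early arrays, so by r it was about as close to either group. The residual SD was 0.295 in late precursors and 0.658 in early precursors. Late precursor replicates 2 and 3 stood apart from replicate 1 as a close pair (r = 0.994, SD of their difference 0.209), so the results below are also given without one of them. Values are log2 expression. A mean no higher than 2.68, the highest median of any of the 15 arrays, is called near the background, and folds against such a mean are lower bounds, computed against 2.68 and written with "at least".

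The genes of both reporters were examined first. FMA measured 9.87, 10.08 and 10.39 in the late precursor arrays, against 2.32, 1.9 and 2.66 in the early precursor arrays. All late arrays were high and all early arrays were near the background, and the log2 difference was 7.82 (SE 0.25, limma adjusted p = 0.000604), at least 173-fold. SPCH measured 2.41, 2.3 and 2.24 in late precursors, against 9.19, 9.15 and 9 in early precursors. It was near the background in all late arrays and fell by 6.8 on the log2 scale (SE 0.14, adjusted p = 8.63e-05), at least 86.5-fold. These levels go with both labels but are no independent check of stage, because the cells were sorted from the lines of these same fusions. The GFP-FAMA and SPCH-YFP transgenes contain the FAMA and SPCH coding sequences and can add to these signals. FMA also averaged 6.64 in middle precursors and 7.23 in mature guard cells, and SPCH averaged 4.1 and 2.52 there. MUTE was near the background in both groups, at 1.62, 1.5 and 1.5 in late precursors and 1.69, 1.68 and 1.7 in early precursors, and no fold is given. Its mean was also near the background in middle precursors, the cells sorted by the MUTE promoter (2.37). Low values of this probe set therefore cannot show that MUTE RNA was absent.

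**Figure D1:**
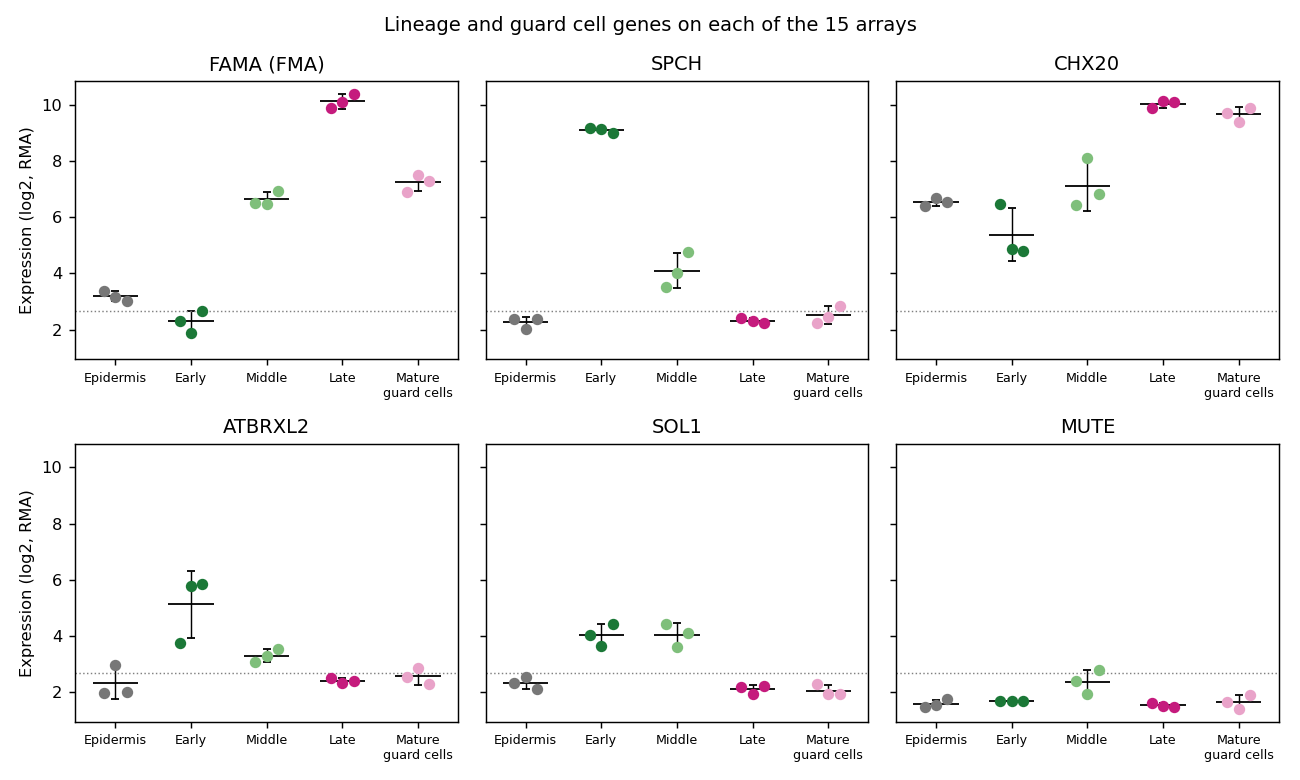
Log2 expression of lineage and guard cell genes in the 5 sorted populations, in the order epidermis, early, middle, late precursors and mature guard cells; points are arrays, the line is the mean of 3 arrays, the bar is the SD and the dotted line is the highest array median. FMA lies near 10 in the late arrays and near 2 in the early arrays, and SPCH lies near 2 in the late arrays and near 9 in the early arrays.

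Of all probe sets, 1496 differed between late and early precursors at an adjusted p under 0.05 (7.14%), with 1161 higher in late precursors (5.54%) and 335 lower (1.6%). The median log2 difference was 2.02 among those that rose and -1.36 among those that fell, against -0.15 over all probe sets. In all 1496 the late and early arrays did not overlap, whereas over all probe sets the late arrays lay above every early array in 14.9% and below every early array in 22.6%. Of the calls, 595 rises and 107 falls exceeded 4-fold. The early mean was near the background for 300 of the probe sets that rose, and the late mean for 125 of those that fell. Exactly 1 gene was listed for 802 of the called probe sets and none for 691. Of the 802, 148 have a symbol, 116 higher and 32 lower. Another scaling or set of arrays moved this split. With all 15 arrays in the fit 2267 probe sets rose and 1975 fell, so that 53.4% of calls were rises. With cyclic loess 885 rose and 458 fell, and with quantile normalization 814 rose and 413 fell, so that 65.9% and 66.3% of calls were rises, against 77.6% on the deposited values; the median over all probe sets was -0.03 with cyclic loess. The count of calls was 1072 without late precursor replicate 1, 376 without replicate 2 and 408 without replicate 3, and 389 with replicates 2 and 3 averaged into 1 sample. Without an early precursor array it was 1535, 1643 or 2138.

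**Figure D2:**
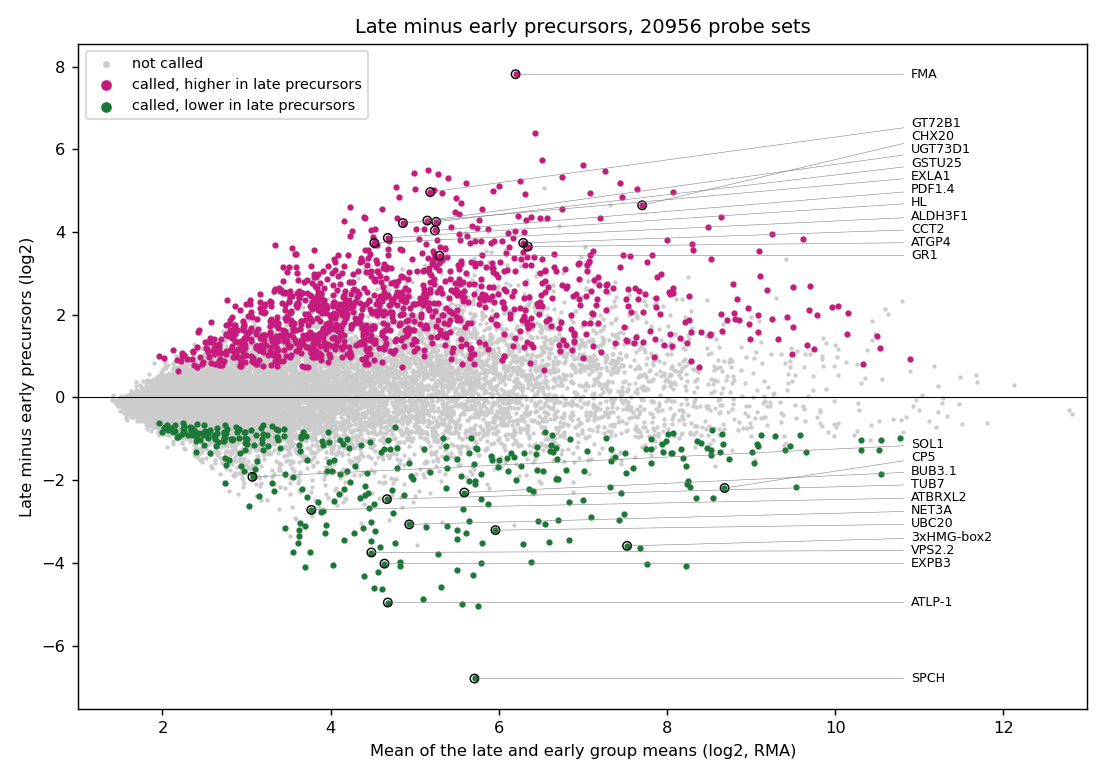
Late minus early log2 difference of each probe set (vertical axis) against its mean over the 6 arrays (horizontal axis); coloured points passed the test, 1161 above and 335 below, and the labelled genes are those of greatest difference that have a symbol. FMA lies far above and SPCH far below all other named genes.

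A gene is called measured where a probe set was listed to it alone, so a list can hold further genes that could not be read. Lists were chosen with earlier results of these data known. A count above the share over all probe sets is therefore no independent support. The list of stomatal lineage regulators held 30 genes, of which 6 were measured. Among these 1 rose (FMA) and 3 fell, against 5.54% higher and 1.6% lower over all probe sets, with a median difference of -1.07. Besides SPCH, the genes that fell were SOL1 and ATBRXL2. SOL1, a CXC-domain protein known to act in fate transitions of this lineage, measured 2.2, 1.92 and 2.22 in late precursors, against 4.03, 3.64 and 4.43 in early precursors. Every late array lay near the background and below every early array, and the difference was -1.92 (SE 0.24, adjusted p = 0.00853). In middle precursors SOL1 averaged 4.05, the level of early precursors. ATBRXL2, a BREVIS RADIX-like protein of the family that partners the polarity protein BASL in asymmetric division, measured 2.5, 2.34 and 2.39 in late precursors, against 3.74, 5.79 and 5.85 in early precursors. Early replicate 1 was the lowest of the early arrays, and the difference was -2.72 (SE 0.58, adjusted p = 0.0463). The SOL1 call was lost without late replicate 2 (adjusted p = 0.0602) or 3 (0.0521), and the ATBRXL2 call without any late replicate (0.115 to 0.182) or without early replicate 2 (0.0843) or 3 (0.0763). STOMAGEN, a secreted peptide that promotes stomata and is made mainly in mesophyll, was near the background in both groups, at 1.55 ± 0.13 in late precursors and 1.78 ± 0.13 in early precursors (SD, n = 3 each).

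The guard cell list held 37 genes, most of which were not measured. Of 4 measured guard cell genes 1 rose, against 5.54% of all probe sets, and 3 rose with all 15 arrays in the fit. CHX20, an endosomal cation/proton exchanger of guard cells, measured 9.87, 10.12 and 10.1 in late precursors, against 6.46, 4.88 and 4.79 in early precursors. The groups did not overlap, early replicate 1 was the highest early array, and CHX20 rose by 4.65 on the log2 scale (SE 0.46, adjusted p = 0.004), 25.1-fold. It averaged 9.66 in mature guard cells. AT1G22690 had a larger mean difference that did not pass the test. It measured 7.83, 9.64 and 9.75 in late precursors, against 6.99, 2.73 and 2.28 in early precursors, and its difference was 5.07 (SE 1.32, adjusted p = 0.0791). Early replicate 1 was again the highest early array, and without it AT1G22690 passed (adjusted p = 0.00895). BLUS1 (AT4G14480), a kinase of blue light signalling in guard cells, was near the background in both groups, at 2.63 ± 0.47 in late precursors and 1.81 ± 0.08 in early precursors. It was near the background in mature guard cells too (2.41), so its low values cannot show that BLUS1 RNA was absent. AT5G06970 averaged 5.09 ± 0.44 in late precursors and 4.84 ± 0.94 in early precursors (adjusted p = 0.745).

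The G2/M list held 44 genes, most of which were not measured. Of 10 measured G2/M genes 3 fell and 0 rose, with a median difference of -1.73, against -0.15 over all probe sets and 1.6% of all probe sets called lower. 3xHMG-box2, a chromosomal protein that binds mitotic chromosomes, measured 6.33, 5.43 and 5.42 in late precursors, against 9.32, 9.28 and 9.36 in early precursors. The early arrays were close together, late replicate 1 was the highest late array, and the difference was -3.59 (SE 0.28, adjusted p = 0.00207), 12.1-fold lower. BUB3.1, of the spindle checkpoint, measured 4.32, 4.53 and 4.46 in late precursors, against 6.42, 6.99 and 6.81 in early precursors (difference -2.3, SE 0.19, adjusted p = 0.00259). KINESIN-12B, a motor of the phragmoplast that builds the new cell plate, measured 3.48, 3.28 and 3.15 in late precursors, against 5.25, 5.27 and 4.72 in early precursors (difference -1.77, SE 0.21, adjusted p = 0.0073). Its middle precursor mean of 5 was at the early level, and its call was lost without late replicate 2 (adjusted p = 0.0566) or 3 (0.0523). Late and early arrays did not overlap in any of these 3 genes.

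The other measured G2/M genes had early arrays that differed among themselves. The Aurora kinases AUR1, AUR2 and AUR3, which act on the spindle, the centromere and the phragmoplast, had differences of -1.95, -1.63 and -1.5 (adjusted p = 0.136, 0.142 and 0.287). AUR1 measured 2.1, 2.37 and 2.04 in late precursors, against 4.84, 2.55 and 4.96 in early precursors, and passed without early replicate 2 (adjusted p = 0.00346). AUR3 measured 1.78, 1.75 and 2.1 in late precursors, against 2.34, 5.39 and 2.39 in early precursors, so early replicate 2 alone stood high. BUBR1, also of the spindle checkpoint, measured 2.98, 2.85 and 2.82 in late precursors, against 3.38, 7.07 and 5.79 in early precursors. Early replicate 1 was the low one here, and without it BUBR1 passed (adjusted p = 0.012), as did 3xHMG-box1 (0.0387). HTR12, the centromeric histone, averaged 1.93 ± 0.19 in late precursors and 2.94 ± 0.9 in early precursors (adjusted p = 0.215). KEU, which regulates vesicle fusion at the cell plate, was the only measured G2/M gene with a positive difference. It averaged 7.53 ± 0.21 in late precursors and 6.62 ± 0.92 in early precursors (adjusted p = 0.257), and without early replicate 3 it passed as a rise (0.0226).

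**Figure D3:**
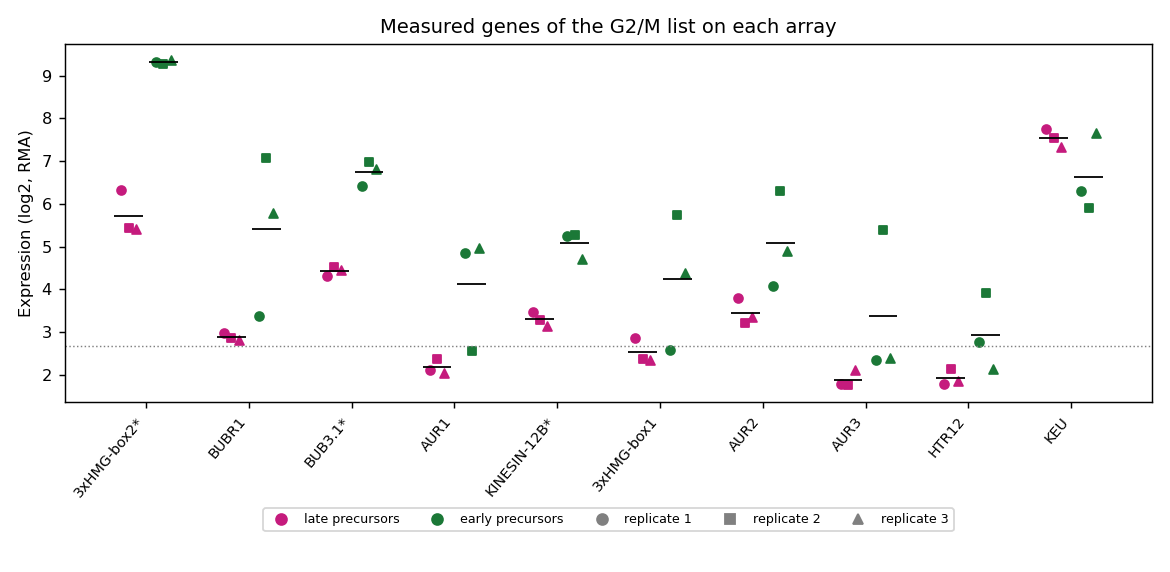
Log2 expression of the 10 measured G2/M genes in each late array (left) and each early array (right), with an asterisk on the genes that passed the test. 3xHMG-box2, BUB3.1 and KINESIN-12B passed, and BUBR1, AUR1, AUR3 and 3xHMG-box1 show early arrays far apart from each other.

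Some of the greatest falls outside the G2/M list were genes with roles in division or the cytoskeleton. They were grouped by role after their values were seen, with no list behind them, so they stand for no group. Not all such genes fell, as NET4B, of the family of NET3A, rose by 2.54 (limma adjusted p = 0.0275). UBC20, a ubiquitin-conjugating enzyme related to the animal enzyme that acts with the anaphase-promoting complex, measured 4.79, 4.1 and 4.17 in late precursors, against 7.48, 7.43 and 7.77 in early precursors (difference -3.21, SE 0.24, adjusted p = 0.00182). All early arrays were higher than all late arrays, and the middle precursor mean of 6.21 lay between them. NET3A, of a family of actin-binding proteins, measured 3.82, 3.1 and 3.26 in late precursors, against 5.23, 7.25 and 6.91 in early precursors (difference -3.07, adjusted p = 0.0287). TUB7, a beta-tubulin, measured 4, 3.3 and 3.03 in late precursors, against 5.22, 6.55 and 5.93 in early precursors (difference -2.46, adjusted p = 0.0234). The UBC20 call held in all 15 alternative fits. The NET3A call was lost without any late replicate (adjusted p = 0.0644 to 0.135) or early replicate 3 (0.0557), and the TUB7 call without late replicate 2 (0.119) or 3 (0.11). Of 6 measured histone genes 0 passed, against 7.14% of all probe sets. The G1/S list held 21 genes, and the 1 measured, PRL, was near the background in both groups.

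The rule for named genes gave 4 other falls. ATLP-1, a thaumatin-like protein, measured 2.49, 2.16 and 1.96 in late precursors, against 7.58, 7.26 and 6.66 in early precursors. It was near the background in all late arrays, and fell by 4.96 on the log2 scale (SE 0.28, adjusted p = 0.00105), at least 22.4-fold. EXPB3, a beta-expansin of the cell wall, measured 2.84, 2.53 and 2.51 in late precursors, against 4.76, 7.04 and 8.14 in early precursors (difference -4.02, SE 0.82, adjusted p = 0.0415). VPS2.2, a subunit of the ESCRT-III membrane complex, measured 2.79, 2.4 and 2.64 in late precursors, against 4.8, 7.05 and 7.23 in early precursors (difference -3.75, SE 0.65, adjusted p = 0.0263). Early replicate 1 was the lowest early array in both. CP5 measured 7.31, 7.67 and 7.79 in late precursors, against 9.83, 9.97 and 9.54 in early precursors (difference -2.19, SE 0.2, adjusted p = 0.00328). The ATLP-1 and CP5 calls held in all 15 alternatives. The EXPB3 and VPS2.2 calls were lost without any late replicate (adjusted p = 0.103 to 0.168 and 0.0742 to 0.126) or early replicate 2 (0.0825 and 0.0524).

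UDP-glycosyltransferases attach sugars to small molecules, and tau glutathione transferases attach glutathione. GT72B1, a UDP-glycosyltransferase of phenolic compounds, measured 7.38, 7.67 and 7.96 in late precursors, against 1.97, 2.24 and 3.89 in early precursors (difference 4.97, SE 0.52, adjusted p = 0.00483), 31.4-fold. UGT73D1, of the same family, measured 6.85, 7.36 and 7.66 in late precursors, against 2.85, 3.72 and 2.46 in early precursors (difference 4.28, SE 0.38, adjusted p = 0.00296). UGT73D1 averaged 3.14 in middle precursors, close to the early mean of 3.01, whereas GT72B1 averaged 6.07 there. Of 48 measured UDP-glycosyltransferases 8 rose and 0 fell, against 5.54% and 1.6% of all probe sets, while the family median was -0.25. This family was chosen with earlier results of these data known. The other rises were UGT73B4 (3.15), UGT73C7 (2.26), UGT73B1 (2.08), UGT87A2 (1.91), UGT73B5 (1.54) and UGT71B6 (0.9), all as log2 differences. In the order just given, their calls held in 15, 9, 15, 7, 6 and 4 of 15 alternatives. The number that rose was 5 without late replicate 1, 4 without late replicate 2 or 3 and 5 without early replicate 1. The number that fell was 3 without early replicate 3 or with array weights, and 7 with all 15 arrays in the fit.

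GSTU25, a glutathione transferase of the tau class, measured 6.9, 7.56 and 7.68 in late precursors, against 2.84, 3.73 and 2.83 in early precursors (difference 4.25, SE 0.34, adjusted p = 0.00224), 19-fold. ALDH3F1, an aldehyde dehydrogenase, measured 6.27, 6.26 and 6.63 in late precursors, against 1.84, 2.4 and 3.72 in early precursors (difference 3.74, SE 0.48, adjusted p = 0.0096). Late arrays were above early arrays in both genes, and early replicate 2 was the highest early array for GSTU25 and replicate 3 for ALDH3F1. Of 11 tau glutathione transferases 4 rose (GSTU25, GSTU27, GSTU22 and GSTU20) and of 8 aldehyde dehydrogenases 3 rose (ALDH3F1, ALDH7B4 and ALDH10A9), with 0 falls in either. Of the 19 together 7 rose and 0 fell, against 5.54% higher and 1.6% lower over all probe sets. This list, too, was chosen with earlier results of these data known. The number that rose was 4 without late replicate 1, 1 without late replicate 2 or 3 and 3 without early replicate 1, and with all 15 arrays in the fit 8 rose and 4 fell. GR1, a glutathione reductase, measured 6.61, 7.05 and 7.37 in late precursors, against 3.27, 2.34 and 5.13 in early precursors (difference 3.43, SE 0.7, adjusted p = 0.0414), and this call was lost without any late replicate (0.0916 to 0.172), early replicate 1 (0.0891) or early replicate 2 (0.0526).

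ATG8 proteins are the ubiquitin-like proteins that coat the membrane of the forming autophagosome. Of 9 measured ATG8 genes 5 rose and 0 fell, against 5.54% higher and 1.6% lower over all probe sets, and all 9 had positive differences, with a median of 1.99. The family was chosen with earlier results of these data known, so a count above that share is no independent support. APG8A measured 4.26, 5.39 and 5.57 in late precursors, against 2.36, 1.5 and 1.93 in early precursors (difference 3.15, SE 0.41, adjusted p = 0.0101). ATG8B measured 3.56, 3.96 and 4.3 in late precursors, against 1.72, 1.85 and 1.18 in early precursors (difference 2.36, SE 0.27, adjusted p = 0.00683). Late replicate 1 was the lowest late array in both, and both were near the background in all early arrays. ATG8H, ATG8F and ATG8D rose by 2.65, 1.81 and 1.4 on the log2 scale, and their calls held in 11, 5 and 15 of 15 alternatives. ATG8E had a difference of 2.69 that did not pass (adjusted p = 0.0587), as did APG8H (1.99, adjusted p = 0.119) and ATG8C (1.09, adjusted p = 0.132). ATG3, the enzyme that attaches ATG8 to lipid, had a difference of 1.1 (adjusted p = 0.108). With ATG3, 5 of 10 autophagy genes passed, and 1 passed without late replicate 2 and 2 without late replicate 3.

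**Figure D4:**
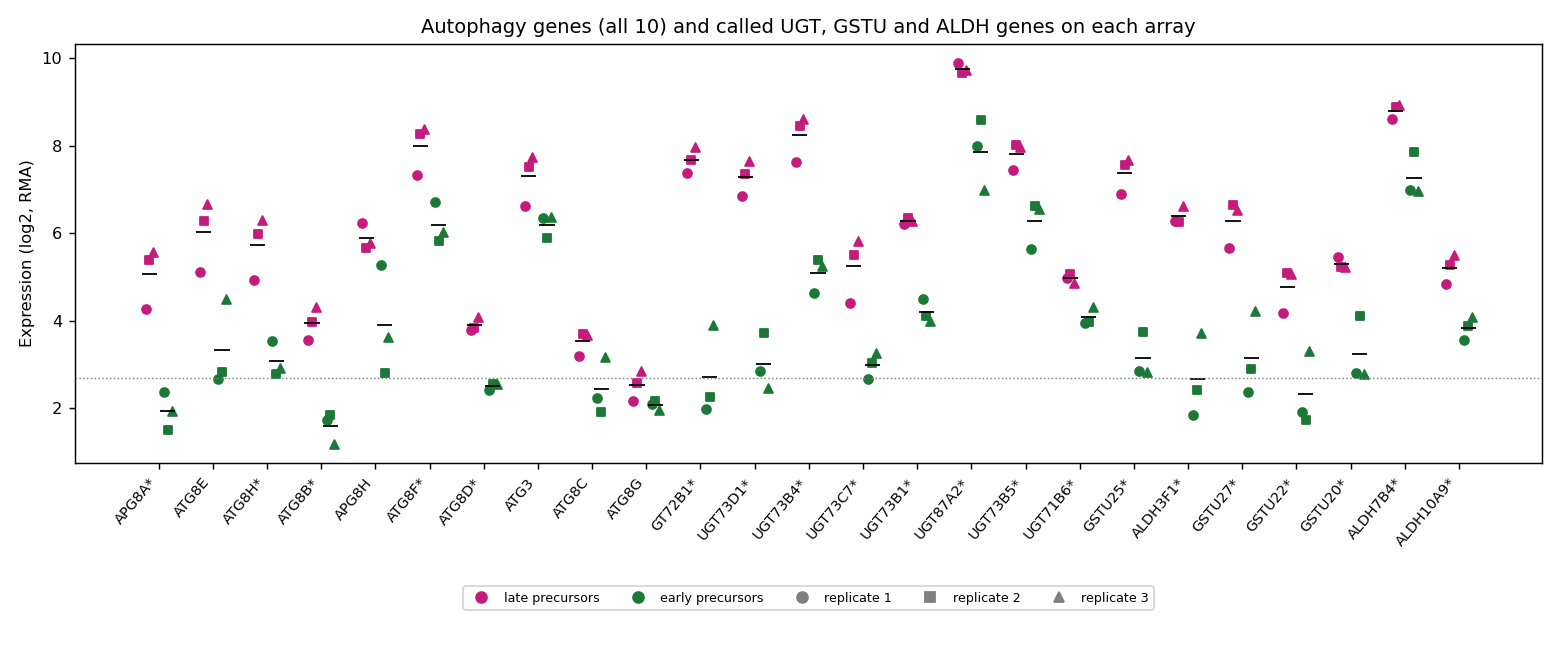
Log2 expression in each late array (left) and each early array (right), with an asterisk on genes that passed the test. All 10 measured autophagy genes are drawn, but only those UDP-glycosyltransferases, aldehyde dehydrogenases and tau glutathione transferases that passed. Autophagy genes lie higher in late precursors on average, with differences from 0.46 to 3.15. The enzymes drawn, chosen because they passed, range from 0.9 to 4.97.

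The remaining greatest rises had varied roles. PDF1.4, a defensin-like secreted peptide, measured 7.22, 7.41 and 7.15 in late precursors, against 3.05, 3.09 and 3.52 in early precursors (difference 4.04, SE 0.19, adjusted p = 0.000882). HL, a HAL2-like phosphatase, measured 6.21, 6.69 and 6.93 in late precursors, against 3.01, 2.63 and 2.62 in early precursors (difference 3.86, SE 0.24, adjusted p = 0.0011). CCT2, which makes CDP-choline for phosphatidylcholine, measured 8.02, 8.15 and 8.31 in late precursors, against 4.29, 3.64 and 5.32 in early precursors (difference 3.74, SE 0.42, adjusted p = 0.00622). Arrays of the groups were far apart in each of these genes, and their calls held in all 15 alternatives. CCT2 averaged 8.03 in the epidermis and 8.4 in mature guard cells. ATGP4 averaged 8.17 ± 0.16 in late precursors and 4.52 ± 1.18 in early precursors (difference 3.65, adjusted p = 0.0186), a call lost without any late replicate (0.0595 to 0.0988). Among genes known by locus, AT4G33150, which encodes the lysine-degrading enzyme lysine-ketoglutarate reductase/saccharopine dehydrogenase, measured 6.78, 6.41 and 6.64 in late precursors, against 2.27, 2.31 and 4.5 in early precursors (difference 3.58, adjusted p = 0.0254). AT5G52050, the efflux carrier DTX50, rose by 2.48 (adjusted p = 0.0203), AT3G09000, the basic proline-rich protein BPP2, by 1.48 (0.0479) and AT1G76640, the calmodulin-like protein CML39, by 1.31 (0.022). These 4 calls were each lost without late replicate 2 or 3 (adjusted p = 0.0934 to 0.188). AT4G33150 also did not pass without late replicate 1 (0.0802) or early replicate 1 (0.0533), nor AT5G52050 without late replicate 1 (0.0665), and AT3G09000 passed in only 4 of 15 alternatives, neither of the other scalings among them. No gene known by locus was called lower with more than a clone name among its synonyms.

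Of 27 measured expansin and XTH genes, which loosen or remodel the wall, 2 rose and 1 fell (EXPB3), against 5.54% higher and 1.6% lower over all probe sets. The median was -0.34, with 12 of the 27 near the background in both groups. The number that fell was 0 without any 1 late replicate or without early replicate 2, 5 without early replicate 3 and 6 with all 15 arrays in the fit. EXLA1, an expansin-like protein, measured 6.56, 7.04 and 7.32 in late precursors, against 2.66, 3.08 and 2.5 in early precursors (difference 4.22, SE 0.26, adjusted p = 0.0011). EXPA16, an alpha-expansin, measured 5.44, 5.2 and 5.14 in late precursors, against 2.48, 3.41 and 3.29 in early precursors (difference 2.2, SE 0.28, adjusted p = 0.00919), and it averaged 5.64 in mature guard cells but 3.18 in the epidermis. The EXLA1 call held in all 15 alternatives, and the EXPA16 call was lost without late replicate 2 (adjusted p = 0.0594) or 3 (0.0529).

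Among transcription factors, WRKY6, known from senescence and from phosphate and boron responses, measured 8.05, 8.23 and 8.06 in late precursors, against 4.61, 4.34 and 5.22 in early precursors (difference 3.39, SE 0.25, adjusted p = 0.00184). It was the 1 gene of 6 measured WRKY factors that passed, against 5.54% higher over all probe sets. A list of 6 is too short to set apart from that share. bHLH115, a regulator of iron homeostasis, measured 5.44, 4.54 and 4.53 in late precursors, against 2.79, 2.69 and 2.63 in early precursors (difference 2.14, SE 0.28, adjusted p = 0.0101). Both calls held in all 15 alternatives. Its relative bHLH104 had a difference of 1.99 (adjusted p = 0.0522). Of 10 measured bHLH factors 2 rose (FMA and bHLH115) and 1 fell (SPCH), against 5.54% higher and 1.6% lower over all probe sets. The number that rose was 3 without early replicate 1 and 4 without early replicate 2.

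Of 9 dehydrin and cold response genes 2 rose, against 5.54% of all probe sets. LTI30, a dehydrin, measured 10.54, 10.06 and 10.01 in late precursors, against 7.71, 6.02 and 6.8 in early precursors (difference 3.36, SE 0.44, adjusted p = 0.0102). Its means were 10.49 in middle precursors, 9.06 in the epidermis and 10.3 in mature guard cells, so the early arrays were the low ones among the 5 populations. COR27, a cold-regulated gene of the circadian clock, measured 7, 6.47 and 6.35 in late precursors, against 3.05, 3.55 and 4.98 in early precursors (difference 2.74, SE 0.51, adjusted p = 0.0322). Neither passed without late replicate 2 (LTI30 0.0594, COR27 0.132) or 3 (0.0554 and 0.12), and COR27 also did not pass without late replicate 1 (0.0956) or early replicate 1 (0.0534) or 2 (0.0667). Of 18 sugar transport genes, of which 13 were near the background in both groups, 1 fell, against 1.6% of all probe sets. It was SWEET16, a vacuolar sugar carrier, which measured 2.21, 2.28 and 1.89 in late precursors, against 3, 3.25 and 3.35 in early precursors (adjusted p = 0.0241), a call lost without any late replicate (0.0601 to 0.114).

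Genes encoded in the organelles had mostly negative differences. Of 69 plastid-encoded genes 0 rose and 7 fell, against 5.54% and 1.6% of all probe sets, and 64 had negative differences, with a median of -0.62. Among the calls were 3 of 4 subunits of the plastid RNA polymerase, which transcribes plastid genes. rpoC1 measured 8.35, 8.39 and 8.74 in late precursors, against 9.9, 9.58 and 9.53 in early precursors (difference -1.18, SE 0.19, adjusted p = 0.0198). rpoB measured 7.19, 7.4 and 7.57 in late precursors, against 8.61, 9.26 and 8.29 in early precursors (difference -1.33, SE 0.28, adjusted p = 0.045), and rpoA had a difference of -0.88 (adjusted p = 0.0336). psbN, whose product helps assemble photosystem II, measured 8.68, 8.86 and 9.08 in late precursors, against 10.39, 9.8 and 9.97 in early precursors (difference -1.18, SE 0.21, adjusted p = 0.029). The others were psaA of photosystem I, rps4 of the plastid ribosome and petG of the cytochrome b6f complex, with differences from -1.03 to -0.91. Their calls held in 7, 5 and 3 of 15 alternatives, and that of rpoA in 5. The number of plastid-encoded genes called lower was 0 without late replicate 1, 2 or 3, 19 with cyclic loess, 20 with quantile normalization, 17 without early replicate 2 and 33 with all 15 arrays in the fit, and it was also 0 with the intensity trend and robust prior.

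Markers of mesophyll, the photosynthetic tissue of the leaf, were given beside these genes. The mesophyll and photosynthesis list held 40 genes, most of which were not measured. Of 5 measured mesophyll and photosynthesis genes 0 passed, against 7.14% of all probe sets, with a median difference of -0.44. Their summed log2 level was 33.8 to 38.9 in late precursors and 30.7 to 43.2 in early precursors. None was near the background in either group, and their part in the organelle result was not tested. Of 10 mitochondrial-encoded genes 0 rose and 3 fell, against 5.54% higher and 1.6% lower over all probe sets, all 10 had negative differences, and the median was -0.75. nad9, a subunit of respiratory complex I, measured 5.6, 5.23 and 5.45 in late precursors, against 7.16, 7.29 and 6.83 in early precursors (difference -1.67, SE 0.19, adjusted p = 0.00639), and its call held in all 15 alternatives. nad4 and nad1, of the same complex, fell by 1.59 and 1.26 on the log2 scale (adjusted p = 0.0234 and 0.0395), calls lost without late replicate 2 (0.122 and 0.142) or 3 (0.118 and 0.161).

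Few markers of other cells the sorts could hold were measured, so the content of such cells cannot be read from them. They were 1 of 7 listed for trichomes, 1 of 10 for the vasculature and 1 of 6 for the shoot meristem and young leaf. The trichome gene TRY measured 2 in each late array, against 2.6, 6.6 and 2.3 in the early arrays, so early replicate 2 stood alone. SWEET11 of the vasculature and CLV3 of the shoot meristem were near the background in all arrays of both groups. Of 5 measured genes out of 16 listed for wounding and protoplasting 0 passed, with summed log2 levels of 30.2 to 32.5 in late precursors and 27.4 to 30.3 in early precursors. The part of other cells or of wounding in the results was not tested. Of 3 measured out of 21 listed starch metabolism genes 0 passed. Auxin response genes gave 0 calls among 11, but 10 of them were near the background in both groups. Over all probe sets 7.14% were called, so 0 calls in the short wounding, starch and auxin lists say little. No probe set was listed for a member of the lists of abscisic acid core signalling, myrosinases, or pavement cell and cuticle markers.

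The other sorted populations were then placed on the axis from the early mean (0) to the late mean (1) for each called probe set, as a description. Among the 1161 probe sets that rose, middle precursors lay between both means in 995 (85.7%), with a median position of 0.57. Mature guard cells lay at a median of 0.83 and were nearer to the late mean in 88.3%. Whole epidermis, which is no stage of the lineage, also lay between both means in 83.7%. Its median was 0.42 and it was nearer to the late mean in 41.8%. The axis is scaled by the same difference that chose the probe sets, which favours values between the means. Among the 335 that fell, the medians were 0.59 for middle precursors, 0.88 for mature guard cells and 0.83 for the epidermis, which was nearer to the late mean in 73.7%. The epidermis thus lay closer to late precursors for the probe sets that fell than for those that rose; this difference was not tested.

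**Figure D5:**
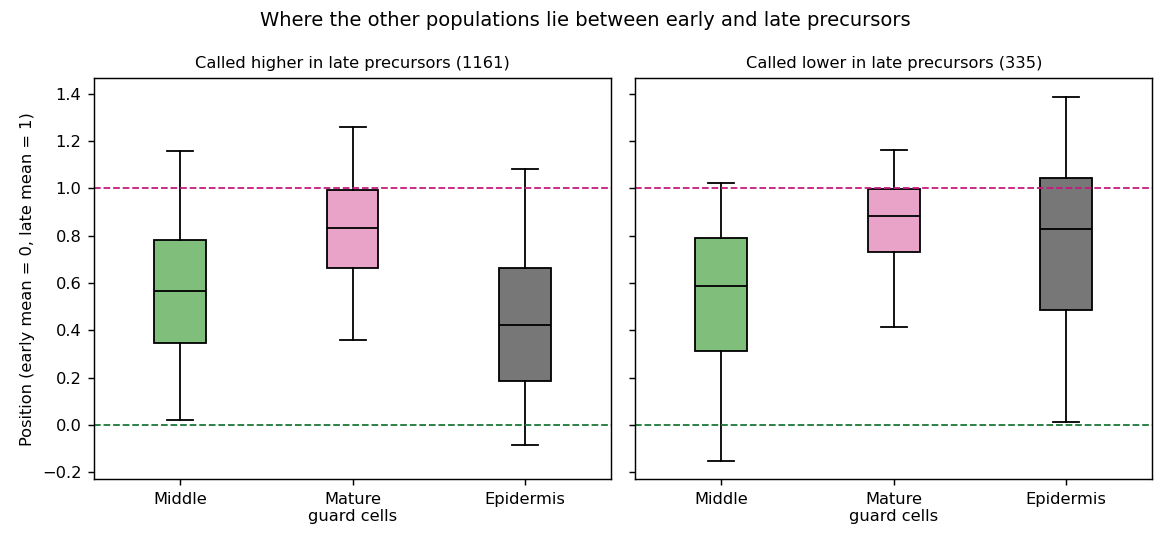
Position of middle precursors, mature guard cells and whole epidermis on the axis from the early mean (0) to the late mean (1), for probe sets that rose and probe sets that fell; the box is the middle range between quartiles, the line is the median and the whiskers run from the 5th to the 95th percentile. Median positions run from 0.42 for the epidermis among rises to 0.88 for mature guard cells among falls.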

How the data were processed

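Sorted protoplasts were profiled on ATH1 arrays. RNA was amplified with the Ovation Pico WTA kit, per the labels' protocols. The deposited log2 values, 1 per probe set and array, were made by the authors with RMA in affy, per the submitters' processing notes; versions, genome build and array annotation are not given in the sources used here. The log base is inferred from the range, 1.11 to 13.4. Array medians were 2.52 to 2.54 in late and 2.58 to 2.68 in early precursors. The number of arrays limits the precision.

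Probe sets were named through the platform's gene list, updated with RefSeq symbols: 12783 had 1 gene, 37 several and 8136 none, and 1537 had a symbol beyond the locus. Groups came from the array titles. The 6 arrays were fitted with 1 mean per group in limma 3.58.1 (R 4.3.3, version 1.17.8 of data.table), leaving 4 residual degrees of freedom, with two-sided moderated tests and Benjamini-Hochberg adjustment over all 20956 probe sets at 0.05. The other 9 arrays were left out of the fit, because early precursors varied more than the other populations and a pooled spread would understate their error. The procedure was tested on simulated data. Summaries and figures were made with Python 3.11.15, pandas 2.3.3, numpy 2.4.6 and matplotlib 3.10.9.

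Named genes were the 12 rises and 12 falls of greatest difference with a symbol, 4 each way known by locus but with another name, up to 3 each way per gene list, and all measured lineage, guard cell and G2/M genes; each had to pass, map to 1 gene and show groups without overlap, except the last class. ATG8, transferase, dehydrogenase and plastid members printed beside them were chosen after their values were seen. Members, lists and the background bound were chosen with earlier results of these data known. Lists are described by counts and medians, with no set test. Alternatives were another scaling, weights, a filter on dim probe sets, another prior, all arrays, the replicate block and leaving out each replicate. Promoter and protein sequences were not used here.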

Additional observations from a re-analysis of the deposited data

How the results depend on the processing

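Of the 46 named genes that passed, 19 passed in every alternative, and of 863 pairs of gene and alternative 702 kept direction and side of the threshold, 141 lost the call and 16 gained one. The sign turned in 4, all of genes that did not pass: MUTE with cyclic loess (0.06, adjusted p = 0.819), and AT5G06970 with cyclic loess (-0.22), quantile normalization (-0.21) and without early replicate 2 (-0.07; up to 0.79 over the arrays left out in turn). All probe sets called numbered 1496, and 4242 with all 15 arrays in the fit, 2435 with array weights and 389 with late replicates 2 and 3 averaged. Called list members numbered 46 of 275, against 7.14% of all probe sets, and 116, 73 and 16 in these settings. Called named genes were 20 with the average. Leaving out 1 array gave 376 to 2138 called probe sets, 19 to 43 named genes and 15 to 57 list members. Fewer arrays and residual degrees of freedom enter these fits.

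The labels number the replicates 1 to 3 in both groups. Deviations of same-numbered arrays from their group means correlated at 0.02, -0.06 and 0.1. No pairing by number was seen, but this cannot settle whether same-numbered arrays were handled together, which the labels do not say. With the replicate block 664 probe sets, 28 named genes and 26 list members passed.

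The table holds no control probe sets, so the background was not measured. MUTE, STOMAGEN and BLUS1 were near the bound of 2.68 in both groups, and of these BLUS1 (AT4G14480) passed with all 15 arrays in the fit (0.82, adjusted p = 0.0214).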

Other observations

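Some genes that no list held were picked from the calls after their values were seen, so they stand for no group. SEC6 and SEC10, subunits of the exocyst that tethers secretory vesicles, rose by 1.59 and 1.69 on the log2 scale (limma adjusted p = 0.0173 and 0.0073). SEC10 averaged 5.32 ± 0.19 in late precursors and 3.63 ± 0.27 in early precursors (SD, n = 3 each). The ESCRT-III genes VPS20.1 and VPS46.2 rose by 2.79 and 1.25 (adjusted p = 0.00754 and 0.0103), whereas VPS2.2, of the same complex, fell. Likewise NET4B, of the actin-binding family of NET3A, rose by 2.54 (adjusted p = 0.0275) while NET3A fell. The vacuolar proteases GAMMA-VPE and APA1 rose by 3.26 and 1.54 (adjusted p = 0.0212 and 0.0159), as did the protease inhibitors SERPIN1 (2.23, adjusted p = 0.0111) and CYS1 (1.99, adjusted p = 0.045). TPLATE, of an endocytic complex first known from cell plate formation, measured 5.85, 4.96 and 4.8 in late precursors, against 6.54, 6.69 and 6.59 in early precursors, and fell by 1.41 (adjusted p = 0.045). RR16, a response regulator of cytokinin signalling, was near the background in late precursors at 1.94 ± 0.3 and averaged 3.56 ± 0.28 in early precursors (difference -1.62, adjusted p = 0.0137). The calls of TPLATE and CYS1 held in 6 and 5 of 15 alternatives, and that of SEC10 in 14. Those of NET4B, GAMMA-VPE and VPS46.2 held in 9, 10 and 10 of 15, and those of APA1, SERPIN1 and VPS20.1 in 11, 11 and 12. SEC6 and RR16 passed in 12 and 11 of 14.

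Single nuclear genes of metabolism were also picked from the calls after their values were seen, with no list behind them. GAPC2, a glycolytic dehydrogenase, averaged 7.49 ± 0.25 in late precursors and 5.64 ± 0.18 in early precursors (difference 1.85, adjusted p = 0.00459). PDC2, a pyruvate decarboxylase, averaged 5.63 ± 0.18 in late precursors and 3.51 ± 0.32 in early precursors (difference 2.12, adjusted p = 0.00427). Both calls held in all 15 alternatives. SDH1-1, of succinate dehydrogenase, rose by 2.81 (adjusted p = 0.0391), FRO1, of complex I, by 2.16 (0.018), and the dehydrogenase NDB2 by 2.46 (0.0163). Of the 15 alternatives SDH1-1 passed in 8, FRO1 in 9 and NDB2 in 11. BIGYIN and FIS1B, both known from mitochondrial and peroxisomal fission, rose by 2.67 and 2.19 (adjusted p = 0.00814 and 0.0228), and passed in 12 and 10 of 15 alternatives. MGL, which degrades methionine, averaged 5.16 ± 0.47 in late precursors and 2.4 ± 0.56 in early precursors (difference 2.76, adjusted p = 0.0106), and its middle precursor mean of 2.42 was at the early level. The MGL call held in 12 of 15 alternatives.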
